A study of Equus caballus with 68 samples.

Results

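The genes described here were 10 ligands and receptors of the TNF superfamily: TNF, TNFSF10, TNFSF12, TNFSF13, TNFSF13B and TNFSF14 among the ligands, and TNFRSF1A, TNFRSF1B, TNFRSF14 and TNFRSF21 among the receptors. They were found by gene symbol, and 9 of the 10 had a row among the 30371 genes of the expression table. TNFSF13 was not analysed here. All 9 passed the filter on low values, so no member was lost to it. TNF superfamily ligands are made as membrane proteins, many of which are also released, and they act as trimers that cluster their receptors. The receptors carry either a death domain, which can lead to cell death, or motifs that bind TRAF adaptors and lead to NF-κB signalling. In the joint, TNF is a classic driver of synovitis, whereas other ligands of the family keep lymphocytes alive or act in tissue repair.

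Bone marrow mononuclear cells (BMNC), the fraction of marrow obtained by density gradient, came from 8 healthy Thoroughbred horses aged 3 to 9 years (6 geldings and 2 mares). Uncultured cells were sequenced at 0 hours (n = 8), and the remainder were cultured in autologous fluid, each culture giving 1 library. SF was fluid from a normal joint of the same horse, and ISF was fluid from a joint of the same horse inflamed with lipopolysaccharide, each cleared of its own cells. Both fluids had 7 horses at 48 hours and 10 days and 8 horses at 96 hours and 6 days, which gave 68 libraries in 9 groups. BMNC are a mixture in which lymphocytes, granulocyte precursors and macrophages change in share during culture, so in these bulk samples fewer cells of a type and less RNA per cell cannot be told apart.

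Values are GeTMM, a read count corrected for gene length and scaled between libraries, so that levels of different genes can be compared. Differences were tested with limma on log2(GeTMM + 1) over 14570 genes, and "called" stands for a Benjamini-Hochberg FDR below 0.05. A fold on that scale understates the change of low genes such as TNF. The libraries held 15.7 to 36.0 M reads on genes. Behind the members were 22 to 333 reads per library for TNF (median 115) and 34 to 1729 for TNFSF13B (median 276), against 2012 to 23705 for TNFRSF1B. The median of TNF was the lowest of the members, although the fewest reads in a single library were 14, for TNFRSF21.

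A few libraries went against the rest or against their labels. The 6-day SF library of Moon lay 1.52 log2 units (root mean square over genes) from the median of its group, and the next library of the series lay at 0.61. By their profile over 200 horse-specific genes, 66 libraries were closest to other libraries of the labelled horse, and 2 were not. The ISF library labelled Dealings at 96 hours was closest to Dreamer (r = 0.95), and the one labelled Dreamer was closest to Dealings (r = 0.91). Several results of the members are given with and without these 3 libraries. The correlations and most results of the other family genes are given only with them. Counts of horses and fits with the horse as a block use the labels as they stand, so at 96 hours they are also given without those 2 ISF libraries, an alternative chosen after seeing the data.

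Before culture, the most abundant member was TNFRSF14 (HVEM, the receptor for LIGHT on lymphocytes and myeloid cells), at 153 ± 25.0 GeTMM (SD, n = 8). TNFRSF1A followed at 129 ± 12.9 and TNFSF12 at 69.0 ± 10.8, while TNFSF13B and TNF were lowest, at 6.65 ± 1.92 and 6.39 ± 2.52. After 10 days in ISF the order was changed. TNFSF12 was then highest at 321 ± 91.0 GeTMM (n = 7), TNFRSF1B second at 169 ± 36.6, and TNFRSF14 was sixth of the 9 at 27.7 ± 6.87. In SF at 10 days TNFSF12 and TNFRSF1B were again the top members, at 223 ± 37.2 and 159 ± 25.0, and TNFRSF14 stood at 71.0 ± 27.9.

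**Figure D1:**
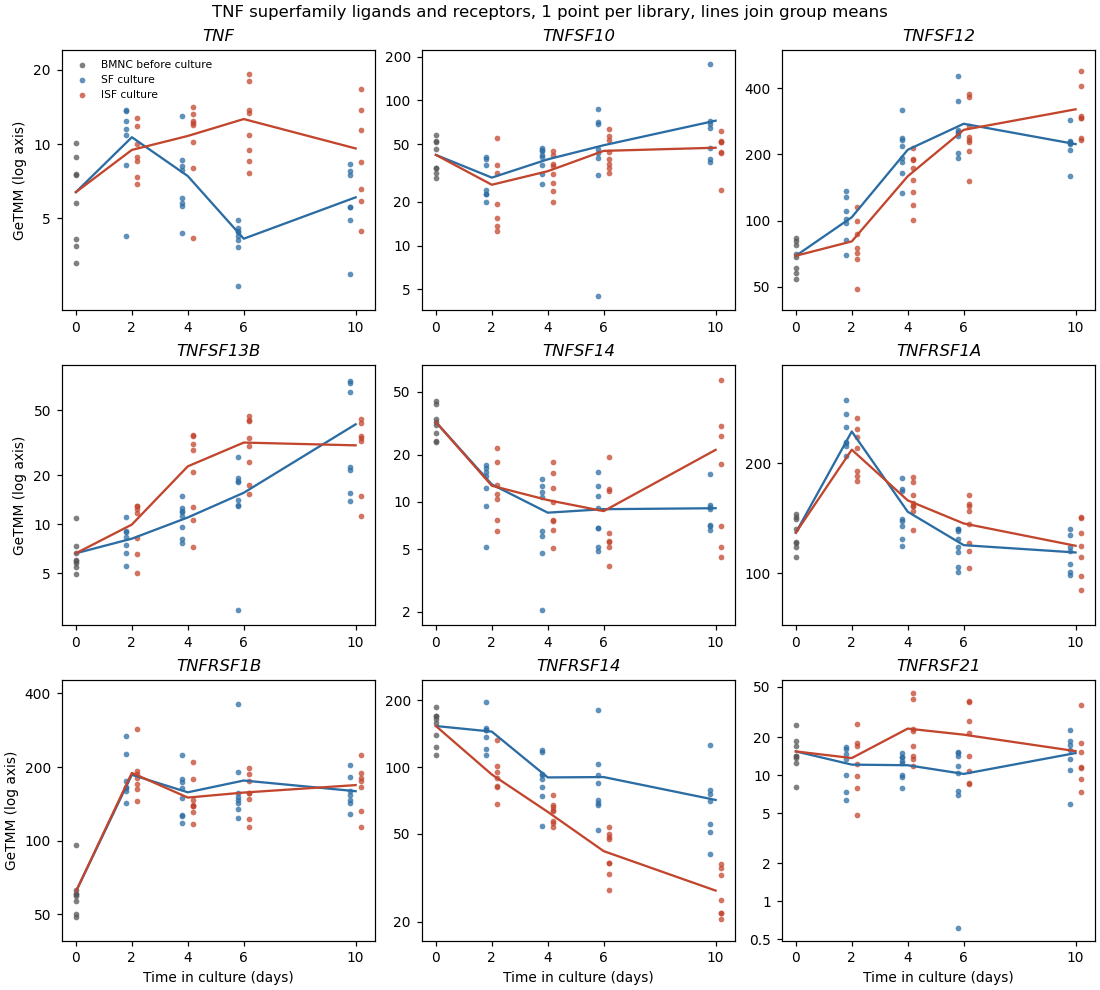
GeTMM (log axis) of the 9 members against days in culture, with 1 point per library and lines joining the group means of SF (blue) and ISF (red) from the uncultured cells (grey). The lines of TNF lie furthest apart at 6 days, where the means were 12.6 in ISF and 4.13 in SF, after 10.8 and 7.43 at 96 hours. Those of TNFRSF14 lie apart from 48 hours on, with ISF lower. The low SF points of TNFSF10, TNFSF13B and TNFRSF21 at 6 days are Moon.

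The fluids were compared at each time point to learn how inflamed fluid alters the cells. At 48 hours, 0 of 9 members were called between ISF and SF, where 1.68% of all tested genes were called. At that time only TNFRSF14 had an unadjusted limma p under 0.05, and limma voom on reads recovered from the table also called 0. At 96 hours the count was again 0, against 10.5% of all tested genes, with 5 members at an unadjusted p under 0.05 and 0 called by voom. At 6 days 4 of 9 members were called, with TNF, TNFSF13B and TNFRSF21 higher in ISF and TNFRSF14 lower, and 30.2% of all tested genes were called. At 10 days only TNFRSF14 was called, as were 20.8% of all tested genes. The median log2 difference over the members was -0.11, 0.11, 0.15 and 0.05 at the 4 times in order, beside -0.02, 0.00, 0.00 and -0.02 over all tested genes.

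**Figure D2:**
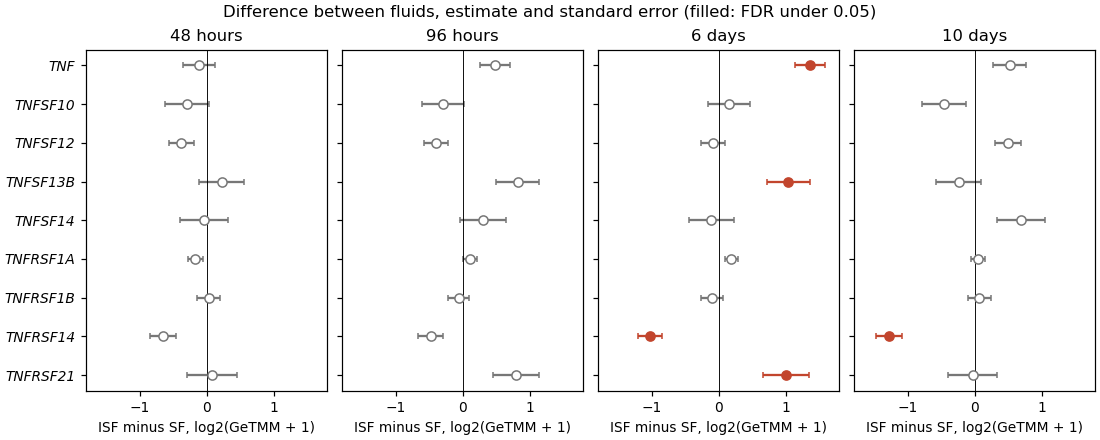
Difference between ISF and SF on the log2(GeTMM + 1) scale for each member at 48 hours, 96 hours, 6 days and 10 days, as the limma estimate with its standard error; filled points have an FDR under 0.05. TNFRSF14 lies left of 0 at all 4 times, from -0.48 to -1.28, and TNF, TNFSF13B and TNFRSF21 lie right of 0 at 6 days.

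TNF, the prototype inflammatory cytokine of activated macrophages and T cells, had the lowest FDR of any member between the fluids at 6 days. In ISF its level ran from 7.63 to 19.3 GeTMM with a median of 12.1 (n = 8), and in SF from 2.65 to 4.91 with a median of 4.30 (n = 8). Every ISF library was above every SF library, and TNF was higher in ISF in 8 of 8 horses. The ratio of the means was 3.06, and the log2 difference was 1.36 ± 0.23 (SE, limma FDR = 3.55e-06). Without the SF library of Moon, which was the lowest SF value, the difference was 1.29 (FDR = 1.33e-05).

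The fluids did not begin apart. At 48 hours TNF ran from 6.89 to 12.8 GeTMM in ISF (median 8.84) and from 4.24 to 13.8 in SF (median 11.5), with a log2 difference of -0.11 ± 0.24 (limma FDR = 0.903). The log2 difference was 0.48 ± 0.23 at 96 hours (FDR = 0.179) and 0.52 ± 0.24 at 10 days (FDR = 0.122), and neither passed the test. The difference between the fluids at 6 days exceeded that at 48 hours by 1.47 ± 0.33 log2 units, a change that passed the test (limma FDR = 0.00368). TNF was the 1 member of 9 for which this change was called, where 5.38% of all tested genes were. For the change from 48 hours to 10 days, 0 of 9 members were called with limma and 0 with voom, against 2.99% of all tested genes, and 2 had an unadjusted p under 0.05 in each.

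Over time, TNF was higher at 48 hours than in uncultured cells in both fluids. Uncultured cells ran from 3.28 to 10.1 GeTMM (median 6.65). The log2 rise was 0.67 ± 0.23 in SF (limma FDR = 0.0160) in 7 of 7 horses and 0.55 ± 0.23 in ISF (FDR = 0.0410) in 6 of 7, with overlapping ranges in each fluid. Both calls depended on single horses. In SF the rise was 0.55 without Ollie (FDR = 0.0748). In ISF it was 0.54 without Dealings (FDR = 0.0750), 0.54 without Flash (FDR = 0.0577), 0.57 without Lurie (FDR = 0.0672) and 0.38 without Ollie (FDR = 0.210). The ISF call was also lost with voom on recovered reads (0.62 ± 0.28, FDR = 0.0595) and with no filter on low values (FDR = 0.0585). No later step of TNF within a fluid passed the test, although TNF was lower at 6 days than at 96 hours in 8 of 8 SF cultures and lower at 10 days than at 6 days in 7 of 7 ISF cultures. In order of mean level the groups ran from ISF at 6 days (12.6 ± 4.33 GeTMM) through ISF at 96 hours (10.8 ± 3.28), SF at 48 hours (10.7 ± 3.41), ISF at 10 days (9.60 ± 4.51), ISF at 48 hours (9.48 ± 2.22), SF at 96 hours (7.43 ± 2.71), uncultured cells (6.39 ± 2.52) and SF at 10 days (6.08 ± 1.89) to SF at 6 days (4.13 ± 0.684). Each neighbouring pair in this order overlapped.

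**Figure D3:**
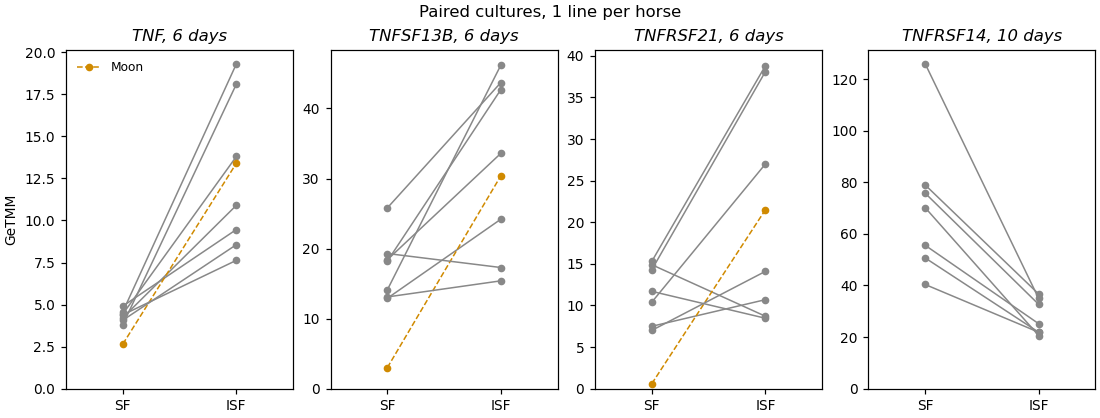
GeTMM of TNF, TNFSF13B and TNFRSF21 at 6 days and of TNFRSF14 at 10 days in SF and ISF, with 1 line per horse and Moon dashed at 6 days. TNF is higher in ISF in 8 of 8 horses and TNFRSF14 is lower in 7 of 7, while TNFSF13B is higher in ISF in 7 of 8 and TNFRSF21 in 6 of 8.

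TNF acts through TNFRSF1A, a death domain receptor found on most cells, and TNFRSF1B, which lacks a death domain and is largely a receptor of immune and endothelial cells. Neither differed between the fluids by the test at any time point, with log2 differences of -0.17 to 0.19 for TNFRSF1A and -0.10 to 0.07 for TNFRSF1B. Both rose in the first 48 hours. TNFRSF1B went from 48.7 to 96.1 GeTMM in uncultured cells (median 60.0) to 145 to 286 in ISF (median 181) and 142 to 268 in SF (median 166), with no overlap. Its log2 rise was 1.60 ± 0.16 in ISF (limma FDR = 1.23e-12) and 1.57 ± 0.16 in SF (FDR = 2.93e-12), an approximate tripling of the mean (ratios of 3.06 and 3.01). It then stayed up: at 10 days it was still 1.43 ± 0.16 above uncultured cells in ISF (FDR = 1.25e-11) and 1.37 ± 0.16 in SF (FDR = 7.71e-11).

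The rise of TNFRSF1A was transient. From 111 to 145 GeTMM in uncultured cells (median 127) it reached 179 to 266 in ISF (median 220.2) and 209.5 to 298 in SF (median 229.8) at 48 hours, again without overlap. The log2 rise was 0.75 ± 0.10 in ISF (limma FDR = 1.13e-08) and 0.92 ± 0.10 in SF (FDR = 4.18e-11). By 96 hours it had fallen by 0.46 in ISF (FDR = 8.57e-04) and by 0.74 in SF (FDR = 1.02e-07), in 7 of 7 horses each, or in 5 of 5 in ISF without the libraries labelled Dealings and Dreamer. At 10 days the receptor ran from 89.8 to 143 GeTMM in ISF and from 98.5 to 132 in SF, and the difference from uncultured cells did not pass the test in either fluid.

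With one receptor transient and the other lasting, their ratio shifted. TNFRSF1B was 0.477 ± 0.0846 times the level of TNFRSF1A before culture (range 0.411 to 0.671), 0.864 ± 0.115 times in ISF and 0.752 ± 0.0875 times in SF at 48 hours. By 10 days the ratio was 1.42 ± 0.188 in ISF (1.16 to 1.71) and 1.40 ± 0.206 in SF (1.12 to 1.72). All libraries at 10 days lay above all uncultured libraries, and the fluids overlapped at every time. This ratio is given as a description without a test.

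**Figure D4:**
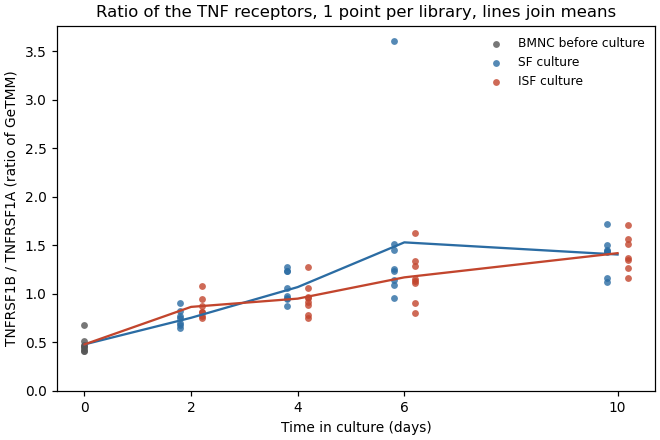
Ratio of TNFRSF1B to TNFRSF1A (GeTMM over GeTMM) against days in culture, with 1 point per library and lines joining the means. The ratio goes from a mean of 0.477 before culture to 1.40 in SF and 1.42 in ISF at 10 days; the single point at 3.61 is the SF library of Moon at 6 days.

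TNFRSF14 (ENSECAG00000008751) fell throughout culture in ISF and was the 1 member called between the fluids both at 6 and at 10 days. At 10 days it ran from 20.6 to 36.7 GeTMM in ISF (median 25.2, n = 7) and from 40.4 to 126 in SF (median 70.2, n = 7). The groups did not overlap, and ISF was lower in 7 of 7 horses. The mean in SF was 2.56 times that in ISF, with a log2 difference of -1.28 ± 0.19 (limma FDR = 7.97e-07). At 6 days the ranges were 28.0 to 53.7 in ISF (median 42.2) and 52.1 to 181 in SF (median 77.9), and in SF only RimRun (52.1) lay below the highest ISF library (53.7). The log2 difference was -1.03 ± 0.18 (FDR = 6.38e-06), or -0.87 without the SF library of Moon, the highest of its group (FDR = 3.33e-05).

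The same direction was seen earlier, where the call depended on the model. TNFRSF14 was lower in ISF in 7 of 7 horses at 48 hours, with 67.9 to 132 GeTMM in ISF against 114 to 197 in SF, and in 8 of 8 horses at 96 hours (6 of 6 without Dealings and Dreamer), with 53.5 to 74.8 against 54.1 to 119. The log2 differences were -0.65 ± 0.19 (limma FDR = 0.0583) and -0.48 ± 0.18 (FDR = 0.0683). With the horse as a block, which compares cultures of the same animal, they were called (FDR = 0.0184 and 0.0307). The block without the 2 ISF libraries labelled Dealings and Dreamer at 96 hours gave -0.48 ± 0.18 at 96 hours, which was not called (FDR = 0.0695). Both times were called when the 6-day SF library of Moon, which enters the shared estimate of the spread, was left out (FDR = 0.0169 and 0.0301), when only the groups compared were fitted (FDR = 0.0314 and 0.0208) and with library weights (FDR = 9.78e-04 and 0.00272). Of the 17 alternatives, 6 called the difference at 48 hours and 5 at 96 hours, and the rest did not. The FDR was highest without Dreamer at 48 hours (0.261) and without Flash at 96 hours (0.198). The widening of the gap from 48 hours to 6 days, by -0.38 ± 0.26, did not pass the test (FDR = 0.442), nor did that to 10 days, by -0.63 ± 0.27 (FDR = 0.192).

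Within ISF, TNFRSF14 fell by 0.73 from 0 to 48 hours (limma FDR = 5.71e-04), by 0.53 to 96 hours (FDR = 0.0299), by 0.60 to 6 days (FDR = 0.0261) and by 0.58 to 10 days (FDR = 0.0290), on the log2 scale, and each step went down in all horses present at both times by their labels, also without Dealings and Dreamer at 96 hours (5 of 5 to 96 hours and 6 of 6 to 6 days). The whole decrease was 2.44 (FDR = 8.78e-19), and the mean before culture was 5.52 times that at 10 days. The last 3 steps taken singly were fragile. The second was not called without the ISF libraries labelled Dealings and Dreamer at 96 hours (FDR = 0.0677), nor without Catnip (0.0740), Dealings (0.0661), Lurie (0.0869) or Ollie (0.0841). The third was not called without Dreamer (0.0925), Ollie (0.140) or RimRun (0.0935), and the fourth without Catnip (0.0780), Dreamer (0.0541), Flash (0.0702), Ollie (0.0706) or RimRun (0.0638). In SF the only step called was that from 48 to 96 hours, where TNFRSF14 fell by 0.70 (FDR = 0.00234), and the decrease summed to 1.16 at 10 days (FDR = 9.32e-08). Ordered by mean, TNFRSF14 ran from uncultured cells (153 GeTMM) and SF at 48 hours (145 ± 26.8) through ISF at 48 hours (92.5 ± 20.3), SF at 6 days (90.1 ± 40.0), SF at 96 hours (89.8 ± 21.4), SF at 10 days (71.0) and ISF at 96 hours (62.8 ± 7.02) to ISF at 6 days (41.8 ± 9.24) and at 10 days (27.7). Neighbours in this order overlapped.

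T and B cell markers, like TNFRSF14, were lower in ISF than in SF late in culture. All 5 T cell markers (CD2, CD3D, CD3E, CD3G and LCK) were lower in ISF than in SF at 6 days and at 10 days. Summed GeTMM of the T cell list ran from 4.33 to 14.8 in ISF and from 23.5 to 199 in SF at 10 days. The B cell markers CD79A, MS4A1 and PAX5 were likewise lower in ISF, 3 of 3 at 6 and at 10 days and 1 of 3 at 96 hours, with a summed level of 1.15 to 8.95 in ISF and 5.40 to 126 in SF at 10 days. Of the neutrophil precursor list, 5 of 6 genes were lower in ISF at 6 days and 3 of 6 at 10 days. No T cell or neutrophil precursor marker was at 0 in every library of a group. At 48 and 96 hours, 0 of 5 T cell markers were called between the fluids, although their summed level already tended to be lower in ISF. It ran from 29.8 to 123 GeTMM in ISF and from 38.8 to 233 in SF at 48 hours. At 96 hours it ran from 18.7 to 77.6 in ISF and from 31.5 to 213 in SF. By the labels, the sum was lower in ISF in every horse except Dealings at both times. The part of these cells in the difference of TNFRSF14 was not tested.

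TNFSF14 (LIGHT), the ligand of TNFRSF14 and of the lymphotoxin beta receptor, also fell in both fluids. It ran from 24.0 to 43.6 GeTMM before culture (median 31.4), from 6.57 to 22.1 in ISF (median 11.3) and from 5.17 to 17.2 in SF (median 14.5) at 48 hours, without overlap. The log2 decrease was 1.35 in ISF (limma FDR = 8.67e-04) and 1.30 in SF (FDR = 0.00155), in 7 of 7 horses each. At 10 days the SF libraries stayed between 6.65 and 15.1 GeTMM, whereas the ISF libraries spread from 4.44 (Moon) to 59.2 (Dealings). The log2 change from 0 hours to 10 days was -1.73 ± 0.35 in SF (FDR = 1.55e-05) and -1.03 ± 0.35 in ISF (FDR = 0.00660), and the latter was -0.79 without Catnip (FDR = 0.0528) and -0.81 without Lurie (FDR = 0.0507). No difference between the fluids passed the test at any time, and at 10 days it was 0.69 ± 0.36 (FDR = 0.170).

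TNFSF13B (BAFF), a survival factor for B cells made largely by myeloid cells, rose in both fluids by 10 days, with ISF ahead at 6 days. Uncultured cells held 4.99 to 11.0 GeTMM (median 5.96). At 6 days ISF ran from 15.4 to 46.2 (median 32.0) and SF from 3.00 to 25.8 (median 16.2), and ISF was higher in 7 of 8 horses with overlapping ranges. The log2 difference was 1.04 ± 0.32 (limma FDR = 0.00973). It was 0.77 without the SF library of Moon, the lowest (FDR = 0.0422), and 0.76 with Moon left out altogether (FDR = 0.0572). The call was also lost when only the groups compared were fitted (1.04 ± 0.34, FDR = 0.0516) and with library weights (0.70 ± 0.30, FDR = 0.0562). At 96 hours the difference was 0.82 ± 0.32 (FDR = 0.0886), called with the horse as a block (FDR = 0.0441). Without the ISF libraries labelled Dealings and Dreamer it was 0.68 (FDR = 0.261), and 0.79 with the block (FDR = 0.109).

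By 10 days the fluids had met. ISF ran from 11.2 to 44.2 GeTMM of TNFSF13B (median 33.7), and SF ranged widely from 13.9 to 75.6 (median 22.5), with 3 high SF cultures, Dealings at 75.6, Lurie at 73.2 and Ollie at 64.7. The log2 difference was -0.24 ± 0.34 (limma FDR = 0.691). From 0 hours to 10 days the log2 rise was 1.94 ± 0.33 in ISF (FDR = 4.97e-07) and 2.17 ± 0.33 in SF (FDR = 4.63e-08), in 7 of 7 horses and without overlap in each fluid. In ISF the step from 48 to 96 hours was called, at 0.99 ± 0.33 (FDR = 0.0254), but not without the libraries labelled Dealings and Dreamer at 96 hours (0.85, FDR = 0.109), nor without Catnip (FDR = 0.0538), Dreamer (FDR = 0.0940) or Flash (FDR = 0.111), nor with voom (FDR = 0.0527). In SF the step from 6 to 10 days was called, at 1.18 ± 0.33 (FDR = 0.0278), but not without the 6-day SF library of Moon (0.91, FDR = 0.109), nor without Dealings (FDR = 0.0551), Lurie (FDR = 0.116), Moon (FDR = 0.108) or Ollie (FDR = 0.0989). It was also lost with library weights (0.82 ± 0.31, FDR = 0.124) and when only the groups compared were fitted (FDR = 0.397). That last fit called 3 of all 14570 tested genes for this step, against 696 in the main fit.

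Collagen and other fibroblast or stromal markers (COL1A1, COL1A2, COL3A1, DCN and LUM) also differed among the SF cultures at 10 days, where all 5 were called lower in ISF. Their summed level in SF ran from 0.406 GeTMM in Moon to 4038 in Lurie, with 123 in Dealings, 517 in Dreamer and 4.69 in Ollie, against 0.123 to 49.2 in ISF. Beside these sums, TNFSF13B in SF was 73.2 GeTMM in Lurie, 75.6 in Dealings, 22.5 in Dreamer, 64.7 in Ollie and 21.5 in Moon. Catnip, with a stromal sum of 2.72, held the lowest TNFSF13B, 13.9 GeTMM. RimRun, with a stromal sum of 27.6, lay below the TNFSF13B median of 22.5. The part of cells with these markers in the level of TNFSF13B was not tested.

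TNFSF12 (TWEAK), a ligand with roles in tissue repair and inflammation, had the highest mean level of any member from 96 hours on, although in ISF at 96 hours (159 ± 39.3 GeTMM, n = 8) it lay within the spread of TNFRSF1A (158 ± 16.8). It went from 54.2 to 83.3 GeTMM before culture (median 69.4) to 233 to 479.6 in ISF (median 294) and 159 to 286 in SF (median 225) at 10 days, without overlap. The log2 rise was 2.17 ± 0.18 in ISF (limma FDR = 1.80e-16) and 1.67 ± 0.18 in SF (FDR = 4.02e-12), in 7 of 7 horses each. Within 48 hours the log2 rise in SF, 0.56 ± 0.18, was called (FDR = 0.0102) and that in ISF, 0.18 ± 0.18, was not (FDR = 0.420). Both fluids rose from 48 to 96 hours, by 0.98 ± 0.18 in ISF (FDR = 6.21e-05) and 1.00 ± 0.18 in SF (FDR = 1.99e-05). Only ISF cultures were called again from 96 hours to 6 days, at 0.69 ± 0.18 (FDR = 0.0110). Whether that step differed between the fluids was not tested.

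Between the fluids, the log2 difference of TNFSF12 (ISF minus SF) was -0.38 ± 0.19 at 48 hours and -0.40 ± 0.18 at 96 hours, then -0.09 ± 0.18 at 6 days and finally 0.50 ± 0.19 at 10 days, none of which passed the test (limma FDR = 0.366, 0.150, 0.742 and 0.0528). ISF was lower in 7 of 8 horses at 96 hours, the exception being the library labelled Dreamer, in 6 of 6 without Dealings and Dreamer, and higher in 6 of 7 at 10 days. With library weights the difference at 96 hours was called (-0.43 ± 0.16, FDR = 0.0346). With the horse as a block the difference at 10 days was called (FDR = 0.0344), and so was its change from 48 hours to 10 days, of 0.87 ± 0.26 (FDR = 0.0262, against 0.0557 without the block). Both were also called without RimRun, at 0.62 (FDR = 0.0207) and 1.02 (FDR = 0.0363), without Moon's 6-day SF culture (FDR = 0.0332 and 0.0285), when only the groups compared were fitted (FDR = 0.0460 and 0.0488) and with library weights (FDR = 0.0194 and 0.0187). Each was called under 7 of the 17 alternatives and not under the rest. The FDR was highest without Lurie (0.164 and 0.313). The highest SF value of TNFSF12 at 6 days, 456 GeTMM, was Moon.

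TNFRSF21 (DR6), a death domain receptor, was called higher in ISF at 6 days, a call that was lost without 1 SF library. ISF ran from 8.47 to 38.8 GeTMM (median 17.8) and SF from 0.608 to 15.3 (median 11.1), with 6 of 8 horses higher in ISF and overlapping ranges. The log2 difference of 1.00 ± 0.34 (limma FDR = 0.0205) became 0.63 without the SF library of Moon, which held 0.608 GeTMM where the next SF library held 7.01 (FDR = 0.10). It was 0.60 without Moon in any group (FDR = 0.157) and 0.96 without Dealings (FDR = 0.0536). The call was also lost when only the groups compared were fitted (1.00 ± 0.46, FDR = 0.165) and with library weights (0.47 ± 0.30, FDR = 0.231). At 96 hours ISF was higher in 7 of 8 horses (5 of 6 without Dealings and Dreamer), by 0.79 ± 0.34 (FDR = 0.134, and 0.0461 with the horse as a block). With the block and without the ISF libraries labelled Dealings and Dreamer it was 0.74 ± 0.31 (FDR = 0.124). No step within a fluid was called, apart from that from 48 to 96 hours in ISF with the block (0.78 ± 0.29, FDR = 0.0451), which was 0.73 ± 0.32 without those 2 libraries (FDR = 0.111). Catnip held the highest ISF value of TNFRSF21 at all 4 times, 25.6, 45.1, 38.8 and 35.7 GeTMM.

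TNFSF10 (TRAIL), a ligand that triggers apoptosis through death receptors, was not called between the fluids at any time. Uncultured cells ran from 29.1 to 57.4 GeTMM (median 40.3), and at 48 hours ISF ran from 12.5 to 55.1 (median 19.4) and SF from 19.9 to 40.6 (median 24.0). The decrease in ISF, of 0.81 on the log2 scale in 6 of 7 horses, was called (limma FDR = 0.0296), but not without Dreamer (-0.76, FDR = 0.0744), Flash (-0.75, FDR = 0.0714), Lurie (-0.75, FDR = 0.0887) or RimRun (-0.62, FDR = 0.149). In SF it was -0.52 (FDR = 0.190). At 10 days SF ranged from 37.7 to 178 GeTMM, with Dealings far above the next culture at 71.8, and ISF from 24.2 to 61.8. The log2 difference between the fluids at 10 days was -0.46 ± 0.33 (FDR = 0.354). From 0 hours to 10 days TNFSF10 in SF was 0.62 higher (FDR = 0.0824, or 0.0252 without Moon's 6-day SF culture).

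Counted over each interval, fewer members were called after the first 48 hours, as was so for all tested genes. In ISF, 6 of 9 were called from 0 to 48 hours (3 higher and 3 lower), against 52.7% of all tested genes, 4 from 48 to 96 hours against 19.0%, 2 from 96 hours to 6 days against 6.38%, and 1 from 6 to 10 days against 10.5%. In SF the counts were 5 against 45.4%, 3 against 27.3%, 0 against 2.05% and 1 against 4.78%. For the step in SF from 96 hours to 6 days, 3 members had an unadjusted limma p under 0.05 (TNF, TNFRSF1A and TNFSF12), and voom called 0. From 0 hours to 10 days TNFRSF1B, TNFSF12 and TNFSF13B rose and TNFSF14 and TNFRSF14 fell in ISF, 5 of 9 against 74.5% of all tested genes. In SF, which is compared with the same uncultured libraries, TNFRSF1B, TNFSF12 and TNFSF13B rose and TNFSF14 and TNFRSF14 fell, 5 of 9 against 69.6%. The median log2 change of the members from 0 hours to 10 days was 0.15 in ISF and -0.03 in SF, beside -0.03 and -0.01 over all tested genes.

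Macrophage markers (CD68, CD163, GPNMB, MRC1, MSR1, SPP1 and TREM2) rose with culture, with 7 of 7 called higher at 48 hours in each fluid. Their summed level ran from 184 to 307 GeTMM before culture, from 14796 to 27364 in ISF and from 7548 to 13818 in SF at 48 hours, and from 47199.6 to 82485 and from 29897 to 75174 at 10 days. Between the fluids at 6 days 1 of 7 was higher and 1 lower in ISF. The neutrophil precursor list (AZU1, CEBPE, ELANE, LTF, MPO and OLFM4) fell from 11356 to 20997 GeTMM summed before culture to 0.759 to 63.7 in ISF and 2.15 to 1648 in SF at 10 days, with 6 of 6 called lower in each. The erythroid list (AHSP, ALAS2, GATA1 and KLF1) fell from 76.2 to 1230.4 GeTMM summed before culture to 0.590 to 1.32 in ISF and 0.583 to 1.53 in SF at 10 days, and ALAS2 was at 0 in every ISF library then. Of 4 cell cycle genes (BUB1, CCNB1, CDK1 and TOP2A), 3 were higher in ISF at 6 days. The part of these shifts in the time courses of the members was not tested.

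Other ligands of the family moved in both directions. Of 11 tested, 0 were called between the fluids at 48 hours (1.68% of all tested genes), 2 at 96 hours (4 with the horse as a block, and 3 with the block but without the ISF libraries labelled Dealings and Dreamer), 6 at 6 days (3 higher in ISF and 3 lower, and 10 called with the block) and 8 at 10 days (3 higher and 5 lower). At the last 3 times 10.5%, 30.2% and 20.8% of all tested genes were called. The 2 ligands with the clearest gain in ISF were TNFSF9 (4-1BBL, a costimulatory ligand of antigen-presenting cells), at 18.5 ± 7.98 GeTMM against 3.09 ± 1.48 at 6 days (log2 difference 2.22 ± 0.26, n = 8, limma FDR = 1.15e-09), and TNFSF15 (TL1A, a T cell costimulator), at 12.0 ± 9.85 against 1.24 ± 0.818 at 10 days (2.12 ± 0.36, n = 7, FDR = 9.63e-06). TNFSF9 was also higher at 96 hours, at 10.3 ± 5.43 against 2.80 ± 0.965 (FDR = 1.06e-04), and at 10 days, at 15.3 ± 3.40 against 6.54 ± 3.47 (FDR = 0.00113). Its difference from SF was larger at 6 days than at 48 hours, by 1.73 ± 0.38 log2 units (FDR = 0.00329). LTB (lymphotoxin beta, a ligand of lymphocytes) went the other way, with 16.1 ± 7.81 in ISF against 45.2 ± 21.1 in SF at 96 hours, 9.55 ± 5.23 against 52.6 ± 37.8 at 6 days and 2.94 ± 2.00 against 31.9 ± 23.6 at 10 days (log2 differences of -1.43, -2.15 and -2.92, FDR = 0.00821, 1.12e-05 and 2.60e-07).

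Among 16 other receptors tested, 1 was called at 48 hours, 7 at 96 hours, 13 at 6 days (6 higher in ISF and 7 lower) and 6 at 10 days (1 higher and 5 lower), beside the same shares of all tested genes, 1.68%, 10.5%, 30.2% and 20.8%. RELT, a receptor of lymphoid tissue, was the single call at 48 hours, with 21.9 ± 4.39 GeTMM in ISF against 12.2 ± 3.52 in SF (0.82 ± 0.22, n = 7, limma FDR = 0.0369), and was higher at 96 hours (16.5 ± 5.27 against 6.60 ± 1.75, FDR = 5.36e-05), at 6 days (18.3 ± 5.77 against 5.95 ± 2.29, FDR = 6.84e-08) and at 10 days (21.5 ± 7.10 against 8.38 ± 2.14, FDR = 2.74e-05). The call at 48 hours was lost without Catnip, Dreamer, Flash, Lurie, Ollie or RimRun, with no filter and with a pseudocount of 0.1, with an FDR of up to 0.141. TNFRSF12A, the receptor of TNFSF12, was higher in ISF at 96 hours, at 8.04 ± 3.08 against 1.68 ± 0.758 (1.72 ± 0.35, n = 8, FDR = 3.37e-04). TNFRSF11A (RANK, the receptor that drives osteoclast formation) was higher at 6 days, at 16.3 ± 7.85 against 6.15 ± 2.77 (1.26 ± 0.31, n = 8, FDR = 0.00127).

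The lowest differences among the receptors called were those of TNFRSF4, CD27 and TNFRSF13C. TNFRSF4 (OX40, of activated T cells) stood at 25.8 ± 16.2 GeTMM in ISF against 165 ± 103 in SF at 6 days (-2.69 ± 0.52, n = 8, limma FDR = 4.62e-05) and at 37.1 ± 29.6 against 164 ± 86.8 at 96 hours (-2.40 ± 0.52, FDR = 8.61e-04). CD27, a receptor of T and memory B cells, was at 1.58 ± 0.517 against 6.58 ± 3.81 at 6 days (-1.38 ± 0.28, FDR = 8.39e-05) and at 0.618 ± 0.405 against 3.90 ± 2.64 at 10 days (-1.46 ± 0.30, FDR = 1.80e-04). At 96 hours CD27 was barely called (-0.80 ± 0.28, FDR = 0.0495) and the call was lost under 12 of the 17 alternatives, with an FDR of up to 0.219. TNFRSF13C, the BAFF receptor of B cells, was at 1.30 ± 1.12 in ISF against 8.12 ± 4.59 in SF at 10 days (-1.97 ± 0.42, n = 7, FDR = 3.53e-04), at a time when its ligand TNFSF13B did not differ by the test. The T and B cell markers given above were lower in ISF at 6 and 10 days, as were CD27 and TNFRSF13C. TNFRSF4 was called lower at 6 days but not at 10 days. From 0 to 48 hours and from 0 hours to 10 days TNFRSF4 was called higher in both fluids. Over the same spans 4 or 5 of the 5 T cell markers were called lower. The part of these cells in the receptor levels was not tested.

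**Figure D5:**
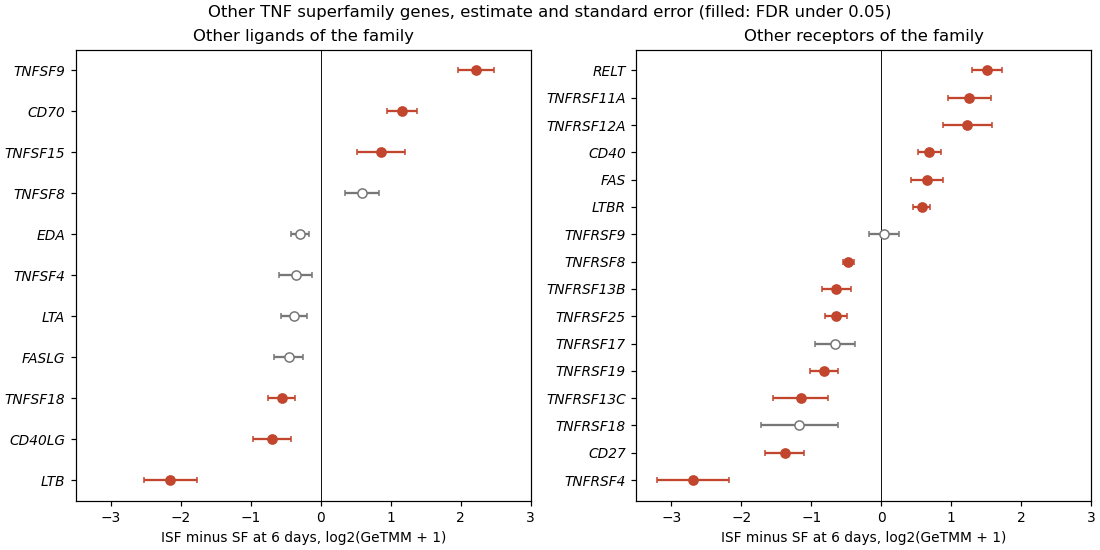
ISF minus SF at 6 days on the log2(GeTMM + 1) scale, with standard errors, for the 11 other ligands (left) and 16 other receptors (right) tested; filled points have an FDR under 0.05. TNFSF9 and RELT lie at the high end (2.22 and 1.51), and LTB and TNFRSF4 at the low end (-2.15 and -2.69).

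Genes of signalling and control, which include adaptors, kinases and inhibitors as well as genes of TNF expression and shedding, were compared in the same way. Of 28 tested, 0 were called at 48 hours, 3 at 96 hours, 5 at 6 days (RHBDF2, MAP3K5 and TAB2 higher in ISF, and LITAF and TAB1 lower) and 2 at 10 days (TNIP1 higher and MAP3K14 lower), against 1.68%, 10.5%, 30.2% and 20.8% of all tested genes. RHBDF2 helps to carry the protease ADAM17, which sheds TNF from the membrane, to the cell surface. The count at 6 days was 9 without the 6-day SF library of Moon and 2 when only the groups compared were fitted. At 10 days it was 5 with the horse as a block, 8 without that library and 7 with library weights. Over all tested genes, the fit of only the groups compared called 1995 at 6 days, against 4405 in the main fit. At 10 days the block called 3943 of all tested genes and library weights 3790, against 3027 in the main fit. From 0 hours to 10 days 21 of 28 were called in ISF, 18 of them lower, and 18 of 28 in SF, 15 of them lower, where 74.5% and 69.6% of all tested genes were called. ADAM17 and LITAF, a factor named for its part in TNF expression, were among the 3 that rose in each fluid. CASP8, CFLAR, TRAF1, TRAF2, BIRC3, TNFAIP3 and CYLD, which set the balance between NF-κB signalling and cell death, fell in both.

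Over the 68 libraries, which share horses and the course of culture, the members differed in the genes they resembled most by Pearson correlation of log2(GeTMM + 1). TNF was most like IRAK2 (r = 0.71), WDR44 (0.69) and SERPINB10 (0.64), the weakest likeness of any member. TNFSF12 was most like CTSF (0.92), TSPAN3 (0.90) and ANKRD40 (0.88), TNFRSF14 like JAML, USF1 and IQCE (0.90 each), and TNFSF13B like TLR3 (0.87), RAP1GDS1 (0.84) and OSBPL6 (0.83). TNFRSF1A was most like POR (0.88), CA12 and SBNO2 (0.87 each), and TNFRSF1B like STX4, FTH1 and ATP6AP1 (0.87 each). The closest genes were EFR3A (0.78), MAN2A1 and RNF169 (0.76 each) for TNFSF10, PLP2, FLYWCH1 (0.77 each) and MTMR14 (0.76) for TNFSF14, and ADIPOR1 (0.74), PLXNC1 and NLRP3 (0.70 each) for TNFRSF21. Among themselves the members were most alike in the pairs TNFSF10 with TNFSF13B (r = 0.61) and TNFSF12 with TNFSF13B (0.59), and most opposed in TNFSF13B with TNFRSF14 (-0.61) and TNFSF12 with TNFRSF14 (-0.59). The 6-day SF library of Moon, an outlier low in both TNFSF10 (4.49 GeTMM) and TNFSF13B (3.00), was included. These correlations were not computed without it. TNFSF14 and its receptor TNFRSF14 had an r of 0.25, and TNF had 0.32 with TNFRSF1A and -0.01 with TNFRSF1B.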

How the data were processed

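RNA of 68 libraries (8 horses, 9 groups) was sequenced on stranded paired-end libraries. The authors trimmed reads with TrimGalore, mapped them to EquCab 3.0 with STAR 2.7.2a, counted them per gene with GeneCounts, and deposited GeTMM values (edgeR), an RPKM-like unit of reads per kilobase with TMM scaling and no logarithm. The strand setting of the counting is not given in the sources used here.

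Reads were recovered from the steps of the values. For all 24065 genes above 0, every value lay within 0.02 of a whole number of reads at 1 gene length. Even numbers made up 40.5% to 49.6% of the counts of 1 to 50 reads in each library, so none was off by a factor of 2. A first form of the recovery failed when tested on other simulated data, by assigning some libraries and the scale of gene lengths a wrong factor, and was corrected. In 12 further sets of simulated data it then recovered 99.9% to 100% of genes exactly. The library totals and the members' reads here were the same before and after the correction.

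Genes at 0.5 GeTMM or more in at least 7 libraries (14570) entered 1 two-sided limma fit (version 3.58.1, R 4.3.3, with lmFit and a trended eBayes) of log2(GeTMM + 1) on the 9 groups without a horse term, and calls were made at a Benjamini-Hochberg FDR below 0.05. In a simulation of ISF against SF at 6 days with 200 of 14570 genes changed by 1 log2 unit, 80% were recovered and 5.88% of calls were false. Cultures are paired by horse, since the labels name the animal, and 66 of 68 libraries were closest to their own horse. The fit with the horse as a block was an alternative, beside 16 others: a pseudocount of 0.1, no filter, only the groups compared, library weights, limma voom on recovered reads, each horse left out, and the doubtful libraries left out, also with the block. Ranges, means ± SD and n are over libraries of different horses.

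The members and gene lists were chosen with earlier results of these data known. Besides all members, the text names, for each fluid comparison, the 3 other family or pathway genes highest and lowest in log2 difference among those called, and the 3 genes with symbols most correlated with each member. Other genes named in lists of calls or markers were given to spell out a count, and the signalling and control genes named for both fluids were picked after their values were seen. One further B cell marker is not reported here.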

Additional observations from a re-analysis of the deposited data

Results flagged for a closer look

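Each of the 81 combinations of a member and a group was examined for a library far from the others of its group (Dixon's ratio on the log2 scale), which chance alone flags in about 1 in 20 groups. There were 9 such libraries, and 5 of them were the 6-day SF library of Moon. That library held 2.65 GeTMM of TNF (next lowest 3.81), 4.49 of TNFSF10 (30.5), 3.00 of TNFSF13B (12.9) and 0.608 of TNFRSF21 (7.01), and 362 of TNFRSF1B (next highest 191). Its GeTMM values summed to 2321939, where no other library of Moon exceeded 1044747.

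TNFRSF1B was high in Flash before culture, at 96.1 GeTMM (next 62.5), and in RimRun in ISF at 48 hours, at 286 (next 193). TNFSF10 was low in Ollie in ISF at 10 days, at 24.2 (next 43.5), and high in Dealings in SF at 10 days, at 178 (next 71.8).

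The difference of TNF between ISF and SF was larger at 6 days than at 48 hours, by 1.47 log2 units (limma FDR = 0.00368), and it was called under each of the 17 alternatives.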

How the results depend on the processing

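Of 38 calls of members in the 16 comparisons, 27 were kept under each of the 17 alternatives, and 91 of 106 differences not called stayed so under each. No call changed direction. With the horse as a replicate block, the number of members called between the fluids was 1 at 48 hours (0 without the block), 3 at 96 hours (0) and 2 at 10 days (1), and it was 1 for the change of the difference to 10 days (0); it altered no other count by more than 1.5 times. The block without the ISF libraries labelled Dealings and Dreamer at 96 hours, chosen after seeing the data, also gave 1 at 48 hours, 2 at 10 days and 1 for the change, but 0 at 96 hours. Fitting only the groups compared gave 1, 2, 2 and 2 members in the fluid comparisons from first to last, 0 for SF from 6 to 10 days and 1 for the change to 10 days. Library weights gave 1, 4, 2 and 2, then 0 and 1. Calls over all 14570 tested genes shifted as well. In the fluid comparisons the main fit called 245, 1524, 4405 and 3027, and the block 660, 2431, 5254 and 3943. The fit of only the groups compared gave 347, 2686, 1995 and 2974, and library weights 2233, 4206, 5447 and 3790. For SF from 6 to 10 days the main fit called 696, only the groups compared 3 and library weights 606. For the change to 10 days these fits called 436, 577 and 1641, and the block 1095. Without Moon's 6-day SF culture the members called were 1, 2 and 2 in the first, second and last, 0 for SF from 6 to 10 days and 1 for the change to 10 days. Without the ISF libraries labelled Dealings and Dreamer at 96 hours, 2 members were called in ISF from 48 to 96 hours (4 with them). Leaving out 1 horse at a time gave 0 to 1 members between the fluids at 48 and at 96 hours, where the main value was 0, 1 to 2 at 10 days (main value 1) and, for the 6-day comparison, 2 to 4 (4). It gave 2 to 4 in ISF from 48 to 96 hours, 1 to 2 from 96 hours to 6 days and 0 to 2 from 6 to 10 days, 0 to 1 in SF from 6 to 10 days, and 0 to 1 for the change to 10 days. The cause of these shifts was not tested. Leaving out libraries or groups also lowers the number of samples. Of the other ligands at 6 days 10 were called with the block (6 without) and 3 without Catnip. Of all tested genes, 5254 were called with the block (4405 without) and 3978 without Catnip. Of the signalling and control genes 2 to 10 were called at 6 days (main value 5) and 2 to 9 at 10 days (2). By median, TNF had the fewest reads of the members, at 22 to 333 per library.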
